A study of Mus musculus with 8 samples.

Results

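The 9 genes described here encode subunits of AP-1, the transcription factor dimer of FOS and JUN proteins, together with ATF3 and MAFF, which pair with or compete with them. They were taken by gene symbol from the deposited table, and all 9 were found among its 24942 genes. The table holds RNA sequencing of retinal ganglion cells, the neurons whose axons form the optic nerve, from mice at postnatal day 8. NPC1-deficient mice gave 4 libraries and wildtype mice gave 4. The labels give 1 strain for all of them, balb/cnctr-npc1m1n/j, whose Npc1 mutation is inherited, so that in NPC1-deficient mice neurons and all other cells carry it alike. Cells of both groups were bound to antibody-coated plates (immunopanning) and lysed without a culture period. NPC1 carries cholesterol out of lysosomes, and its loss causes Niemann-Pick disease type C. Whether the libraries are separate animals or pools is not stated, so the p-values reflect library-to-library spread, which may be technical.

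AP-1 proteins are basic leucine zipper factors. FOS proteins bind DNA as dimers, chiefly with a JUN protein, while JUN proteins also pair with each other. Fos, Fosb and Junb are immediate early genes, transcribed within minutes of calcium entry, growth factor signalling or injury, and Jund is present in most resting cells. In ganglion cells, JUN is activated by the kinases DLK and JNK after damage to the axon, and Jun and Atf3 are among the genes that rise after optic nerve injury.

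The stretches of DNA just before the start sites of Fos, Jun and Atf3 are shown because their promoters are known for answering stimulation, stress or injury. This choice does not follow the size of the differences reported below. Each is the 250 bases before the RefSeq start (GRCm38.p6), written 5′ to 3′ on the gene's strand, from chr12:85473640-85473889 (plus strand) for Fos, chr4:95052223-95052472 (minus strand) for Jun and chr1:191183334-191183583 (minus strand) for Atf3. Capitals mark motif matches.
Fos: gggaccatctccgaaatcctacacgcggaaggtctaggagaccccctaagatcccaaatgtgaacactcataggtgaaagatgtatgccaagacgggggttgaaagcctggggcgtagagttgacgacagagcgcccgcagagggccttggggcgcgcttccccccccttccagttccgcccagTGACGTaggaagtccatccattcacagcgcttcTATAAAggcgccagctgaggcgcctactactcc
Jun: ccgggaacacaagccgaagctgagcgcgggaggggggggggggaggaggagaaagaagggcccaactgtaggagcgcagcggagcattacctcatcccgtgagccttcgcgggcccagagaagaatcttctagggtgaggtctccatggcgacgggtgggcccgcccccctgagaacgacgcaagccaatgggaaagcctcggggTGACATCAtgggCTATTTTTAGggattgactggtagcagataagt
Atf3: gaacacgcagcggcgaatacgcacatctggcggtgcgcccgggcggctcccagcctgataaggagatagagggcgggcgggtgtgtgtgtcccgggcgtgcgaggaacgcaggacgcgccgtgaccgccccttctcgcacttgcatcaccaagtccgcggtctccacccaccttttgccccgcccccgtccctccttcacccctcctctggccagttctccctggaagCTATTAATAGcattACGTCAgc
The motifs searched on both strands were the AP-1 site TGACTCA, the cyclic AMP response element TGACGTCA, its half-site TGACGT, which lies inside the full element, the AP-1-like site TGACATCA, and, by name, the CArG box and the MEF2 site. The TATA box TATAAA was searched on the gene's strand only. The capitals in Fos are the half-site at -66 to -61 and a TATA box at -33 to -28, counted from the start. In Jun they are TGACATCA at -45 to -38 and a MEF2 site at -33 to -24. In Atf3 they are a MEF2 site at -22 to -13 and the half-site, read on the opposite strand, at -8 to -3. Of all 32851 promoters of this length, 6.47% held the half-site, 2.93% held TGACATCA, 2.92% held a MEF2 site and 7.59% held the TATA box. The AP-1 site was in 4.46% of them, the full response element in 1.55% and the CArG box in 1.47%, and these 3 had no match in the windows printed. Bases outside the 250 were not searched, so sites farther before the start, or after it, would be missed. The lack of a match therefore does not mean that the gene lacks the site. Promoters were listed for 8 of the 9 genes. The windows of Fosb, Fosl2, Junb and Jund held no match to any of the motifs. Of those of Maff 1 held the full response element at -29 to -22 and another held TGACATCA at -45 to -38. RefSeq starts can differ from the gene positions given below, which come from GENCODE. The Jund window, chr8:70697489-70697738, ends well before the GENCODE start at 70698949, so the bases next to that start were not searched. The Atf3 window lies inside the GENCODE gene, whose start on the minus strand is at 191218039. The Fosl2 window, chr5:32136222-32136471, also lies inside its GENCODE gene, which starts at 32135801. The bases before those 2 GENCODE starts were not searched either.

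Npc1 checks the labels, because grouping here follows titles and descriptions, while the strain field contradicts them: it marks libraries numbered 1 or 2 as wildtype and those numbered 3 or 4 as homozygous, whatever their group. Its normalized read count was 66.1 to 139.75 in NPC1-deficient libraries and 707 to 857 in wildtype libraries. The pairs of numbers in that field, 1 with 2 and 3 with 4, are called library sets. Library totals were 33030175 to 44050118 reads. The 17 ganglion cell markers were all detected, with a geometric mean of 22123 to 23064 in NPC1-deficient and 21325 to 21978 in wildtype libraries. Markers of other cell types had mostly negative fold changes. The pericyte and fibroblast list went the other way, with 4 of 5 tested markers positive (median log2 fold change 0.37). All 14 microglial markers had a negative fold change, none of them was at 0 in any library, and their summed level was 2779 to 4520.1 in NPC1-deficient and 3911 to 15867 in wildtype libraries. Of the 14 rod markers 13 had a negative fold change, none was at 0, and their geometric mean was 193 to 255 in NPC1-deficient and 272 to 649.6 in wildtype libraries. Of 10 amacrine markers 7 had a negative fold change and none was at 0. Their geometric mean was 294 to 417 in NPC1-deficient and 450.0 to 798 in wildtype libraries. The rod and amacrine geometric means separate the groups wholly, so a fit adjusted for either cannot fully part it from genotype. The summed level of rod markers was 72033 to 76284 in NPC1-deficient and 72482 to 80599 in wildtype libraries, and that of amacrine markers was 37632 to 41995 in NPC1-deficient and 39689.5 to 46124 in wildtype libraries. Xist, the transcript of the female inactive X chromosome, was at 0 to 68.1 in NPC1-deficient and 18.2 to 595 in wildtype libraries, and the sum of Y-linked genes was 2597 to 3788 in NPC1-deficient and 45.6 to 3093 in wildtype libraries. Wildtype 1 held the female end of both ranges (595 for Xist, 45.6 for the Y-linked genes). Wildtype 3 (238 and 1241) and wildtype 4 (164 and 1508) also lay outside the NPC1-deficient ranges, while wildtype 2 (18.2 and 3093) lay inside them. The sexes were thus not balanced between the groups, so sex and genotype overlap in part. Fits without wildtype 1, given below, also change this balance. The part of the sexes in any result was not tested. In bulk libraries of this kind, fewer cells of a type and less RNA per cell cannot be told apart.

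None of the 9 genes passed the test over all genes, and all 9 had a negative fold change in NPC1-deficient libraries. The count of members past a limma adjusted p of 0.05 was 0, against 16 of 15386 genes tested (0.104%), with 0.065% of genes fallen and 0.039% risen. At an unadjusted p under 0.05 there were 6 of 9, namely Fos, Fosb, Jun, Junb, Atf3 and Maff, all lower in NPC1-deficient libraries, against 4.37% of all genes lower and 6.76% in either direction. The edgeR quasi-likelihood test on recovered reads passed 0 members, against 16 of all genes (0.104%). DESeq2 passed 2, Fos and Junb, against 246 of all genes (1.6%). The median log2 fold change of the 9 was -0.34, against 0.00497 over all genes, of which 48% were negative. In 2 of the 9, Fos and Junb, every NPC1-deficient library lay below every wildtype library, which held for 2.41% of all genes, and no member lay wholly above, as 1.86% of genes did. The members were chosen with earlier results of these data known, so these counts are no independent evidence. The 9 genes had 51 to 6867 reads in each library, so none was near the limit of detection.

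**Figure D1:**
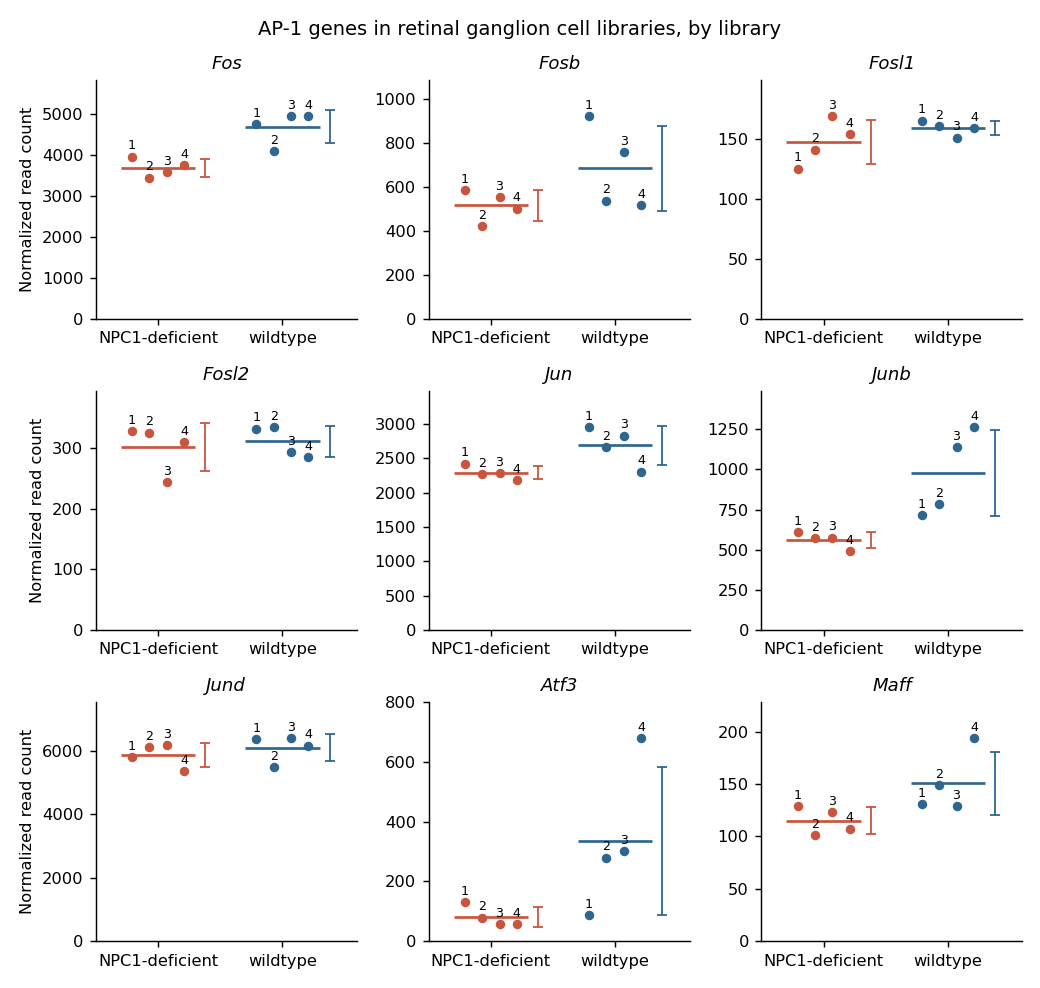
Normalized read count of each of the 9 AP-1 genes (vertical axes, from 0) in the 4 NPC1-deficient (left, red) and 4 wildtype (right, blue) libraries. Numbers are replicate numbers, horizontal lines are group means and bars are the SD (n = 4). The groups are apart for Fos and Junb, and wildtype 4 stands highest for Atf3 at 679.

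Per exonic length, Jund and Fos were the most abundant members in both groups. On the scale of normalized reads per kilobase of exon, Jund stood at 3517 ± 224 in NPC1-deficient and 3655 ± 252 in wildtype libraries, and Fos at 1568 ± 95.7 in NPC1-deficient and 1994 ± 170.3 in wildtype libraries (SD, n = 4 each). Jun followed at 719 ± 31.1 in NPC1-deficient and 844 ± 88.2 in wildtype libraries, and Junb at 244 ± 21.6 in NPC1-deficient and 424 ± 117 in wildtype libraries. These first 4 places were the same in both groups, and their ranges over libraries did not overlap within a group. Atf3 took the fifth place in wildtype libraries, at 156 ± 115, and the eighth in NPC1-deficient libraries, at 36.9 ± 16.02. Fosb, Fosl1, Maff and Fosl2 lay at 82.6, 72.4, 44.4 and 31.2 in NPC1-deficient libraries and 109.6, 78.2, 58.1 and 32.2 in wildtype libraries. In NPC1-deficient libraries the neighbours Fosb and Fosl1, Maff and Atf3, and Atf3 and Fosl2 overlapped. In wildtype libraries Atf3 overlapped with Junb above it and Fosb below it, and Fosl1 overlapped with Maff. The levels of Jund and Fosl1 are uncertain, since 52.6% and 57.2% of their exonic bases are shared with opposite-strand genes and the libraries do not mark strand.

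**Figure D2:**
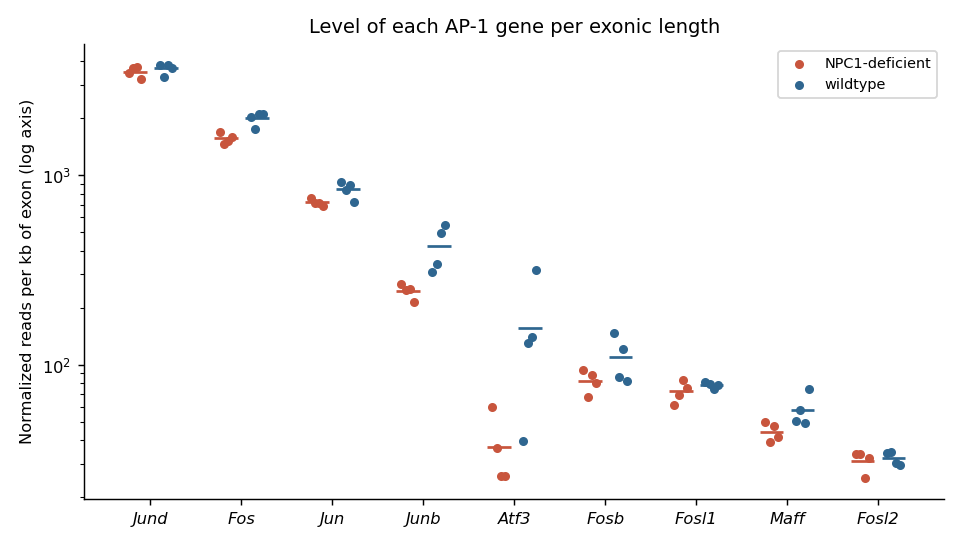
Normalized reads per kilobase of exon (log axis) of the 9 AP-1 genes, in the order of the wildtype mean, with NPC1-deficient libraries in red left of wildtype libraries in blue. Points are libraries (n = 4 per group) and lines are group means. Jund, Fos, Jun and Junb keep the first 4 places in both groups.

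In the FOS family, Fos itself had the smallest p and the only groups that did not overlap. Fos, the founding immediate early member (ENSMUSG00000021250, chr12:85473890-85477273, plus strand, GRCm38 here and below), had 3964, 3447, 3576 and 3761 normalized reads in NPC1-deficient 1 to 4. Its values were 4764, 4103, 4950.4 and 4943 in wildtype 1 to 4. Every NPC1-deficient library was lower, with NPC1-deficient 1 and wildtype 2 nearest to each other. The log2 fold change was -0.34 (SE 0.07, adjusted p = 0.0773 by limma, 61st of 15386 genes by p), and the means were 3687 ± 225 in NPC1-deficient and 4690.1 ± 401 in wildtype libraries (SD, n = 4 each). Leaving out single libraries moved it between -0.41 and -0.31. With the library set as a term Fos passed (limma adjusted p = 0.0356), as 0.643% of all genes did, and DESeq2 gave an adjusted p of 0.00106. Adjusted for the microglial level Fos had -0.35 and for the rod level -0.27, neither past the threshold of limma.

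Fosb (ENSMUSG00000003545, chr7:19302696-19310051, minus strand) also encodes the long-lived truncated protein known from chronically stimulated neurons. It had 585, 422, 554 and 501 normalized reads in NPC1-deficient 1 to 4 and 922, 538, 759.8 and 516 in wildtype 1 to 4. Gene counts do not tell its full and truncated forms apart. Wildtype 1 and 3 were high and the groups overlapped. The log2 fold change was -0.38 (SE 0.17, adjusted p = 0.735 by limma), and -0.22 without wildtype 1. Adjusted for the rod level Fosb had 0.24 (limma adjusted p = 0.999), for the amacrine level 0.17, and for the microglial level -0.82 (limma adjusted p = 0.173). Wildtype 1 and 3, the libraries with the most Fosb, also had the highest geometric mean of rod markers, at 649.6 and 412, and of amacrine markers, at 750.3 and 798. The rod and amacrine levels separate the groups, so these terms overlap with genotype. Whether these cells contribute to the Fosb value was not tested.

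Fosl1 (ENSMUSG00000024912, chr19:5447547-5455946, plus strand) and Fosl2 (ENSMUSG00000029135, chr5:32135801-32157842, plus strand) encode FRA-1 and FRA-2, known as slower members of the family. Both were close between the groups. Fosl1 had 125 to 169 normalized reads in NPC1-deficient and 151 to 165 in wildtype libraries, with a log2 fold change of -0.12 (95% interval -0.37 to 0.14). Fosl2 had 244 to 329 in NPC1-deficient and 285 to 335 in wildtype libraries, with a log2 fold change of -0.05 (95% interval -0.30 to 0.19). In both genes the ranges of the groups overlapped. Reads of Fosl1 are uncertain, since 57.2% of its exonic bases are shared with Ccdc85b on the opposite strand, which had 938 to 1296 normalized reads in NPC1-deficient and 1200.3 to 1368 in wildtype libraries, and the libraries do not mark strand.

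In the JUN family, Junb had the largest difference and Jund the smallest. Junb, an immediate early member that can hold back JUN at some targets (ENSMUSG00000052837, chr8:84974484-84978718, minus strand), had 611, 570.4, 575 and 493 normalized reads in NPC1-deficient 1 to 4. In wildtype 1 to 4 it had 714, 783, 1141 and 1263. The NPC1-deficient libraries were close together and all lower, while wildtype 3 and 4 stood well above wildtype 1 and 2. The log2 fold change was -0.76 (SE 0.16, adjusted p = 0.0932 by limma), with means of 562 ± 49.8 in NPC1-deficient and 975 ± 268 in wildtype libraries (SD, n = 4 each). Junb passed without wildtype 1 (-0.89, limma adjusted p = 0.0122), as 0.936% of all genes did, with the library set as a term (limma adjusted p = 0.0356), and with DESeq2 (adjusted p = 0.000231). Adjusted for the microglial level, Junb had -0.29 (limma adjusted p = 0.792), and for the rod level -1.05. Of its exonic bases 7.52% are shared with Prdx2 on the opposite strand, which had 33451 to 42587 normalized reads in NPC1-deficient and 34987 to 38658 in wildtype libraries.

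Jun is the member that JNK phosphorylates after axon damage (ENSMUSG00000052684, chr4:95049034-95052222, minus strand). It had 2423, 2275, 2289 and 2182 normalized reads in NPC1-deficient 1 to 4 and 2953, 2670.2, 2833 and 2306 in wildtype 1 to 4. Only wildtype 4 lay within the NPC1-deficient range. The log2 fold change was -0.23 (SE 0.07, adjusted p = 0.374 by limma). Of its exonic bases 7.28% are shared with Junos on the opposite strand. The fold change was -0.30 without wildtype 4 (limma adjusted p = 0.0847). It was -0.02 with the rod level as a term, -0.04 with the amacrine level and -0.37 with the microglial level (limma adjusted p = 0.277). The rod and amacrine levels separate the groups, so those terms overlap with genotype. Jund (ENSMUSG00000071076, chr8:70698949-70700616, plus strand) had 5364 to 6188 normalized reads in NPC1-deficient and 5484 to 6386 in wildtype libraries, with overlapping groups. Its log2 fold change was -0.05 (95% interval -0.19 to 0.08), and 52.6% of its exonic bases are shared with Gm11175 on the opposite strand, and neither of these opposite genes was analysed here.

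Shares within the JUN family were apart between the groups for Junb and Jund, while those within the FOS family overlapped. Of the summed reads per kilobase of Jun, Junb and Jund, Junb took 5.20% to 5.89% in NPC1-deficient and 6.15% to 11.1% in wildtype libraries. Jund took 77.2% to 79.3% in NPC1-deficient and 73.4% to 75.5% in wildtype libraries. Junb thus took the smaller and Jund the larger share in every NPC1-deficient library. Shares within a family add up to a fixed whole, so these are not separate results. Jund itself had a log2 fold change of -0.05 with overlapping groups, and 52.6% of its exonic bases are shared with Gm11175. Jun took 16.1% ± 0.789 in NPC1-deficient and 17.2% ± 1.89 in wildtype libraries (SD, n = 4 each), with overlap. In the FOS family, Fos took 89.4% ± 0.591 of the summed level in NPC1-deficient and 90.1% ± 1.33 in wildtype libraries, and all 4 shares overlapped.

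**Figure D3:**
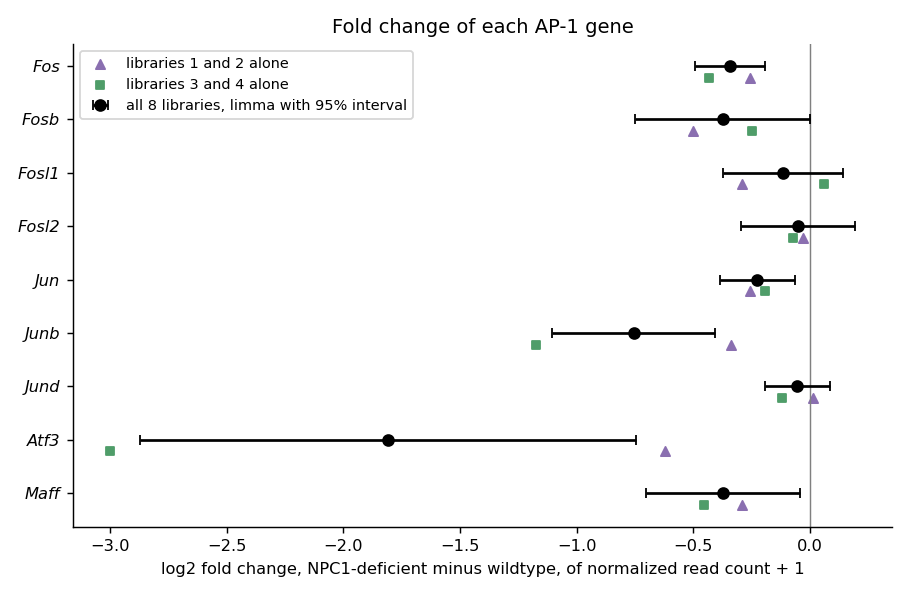
Log2 fold change of each AP-1 gene, NPC1-deficient minus wildtype, on the scale of normalized read count + 1. Black points with bars are limma estimates with 95% intervals (4 against 4 libraries), triangles are libraries 1 and 2 alone and squares are libraries 3 and 4 alone. Atf3 and Junb lie farthest from 0, and their 2 library sets lie farthest apart.

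Atf3 and Maff were the partners outside the FOS and JUN families. Atf3, a factor of the ATF/CREB group that stress and axon injury induce (ENSMUSG00000026628, chr1:191170296-191218039, minus strand), had 129, 78.1, 55.6 and 55.8 normalized reads in NPC1-deficient 1 to 4. In wildtype 1 to 4 it had 85.5, 279.5, 301 and 679. Wildtype 2, 3 and 4 stood above every NPC1-deficient library, and wildtype 1 lay inside their range. The log2 fold change was -1.81 (SE 0.49, adjusted p = 0.194 by limma), the largest of the 9. Without wildtype 1 it was -2.35 and passed (limma adjusted p = 0.00689), and without wildtype 4 it was -1.36 (limma adjusted p = 0.317).

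The Atf3 values ran beside those of microglial markers. Wildtype 1, the wildtype library low in Atf3, was also the one low in microglial markers, with a geometric mean of 163, against 475, 405 and 700.9 in wildtype 2 to 4. NPC1-deficient 1 to 4 had geometric means of 186, 159, 153 and 94.1. Adjusted for that level, Atf3 had an estimate of 0.00699 on the log2 scale (limma adjusted p = 0.998). That level separates the groups apart from wildtype 1, so the term and the genotype overlap. With the rod or the amacrine level as a term, Atf3 was lower in NPC1-deficient libraries and passed, at -3.17 for the rod level (limma adjusted p = 0.0344) and -3.74 for the amacrine level (limma adjusted p = 0.0447). These terms passed 0.604% and 0.13% of all genes. The rod and amacrine levels were lower in every NPC1-deficient library than in any wildtype library, so these terms and the genotype overlap as well.

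Maff encodes a small MAF protein with no activation domain of its own (ENSMUSG00000042622, chr15:79346621-79359076, plus strand). It had 129, 101, 123 and 107 normalized reads in NPC1-deficient 1 to 4 and 131, 149, 129 and 194 in wildtype 1 to 4. Wildtype 4 was the highest, and NPC1-deficient 1 and wildtype 3 overlapped by less than 1 normalized read. Its log2 fold change was -0.37 (SE 0.15, adjusted p = 0.613 by limma), and -0.06 when adjusted for microglial markers. Adjusted for the rod level it was -0.61 and for the amacrine level -0.83, neither past the threshold of limma.

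**Figure D4:**
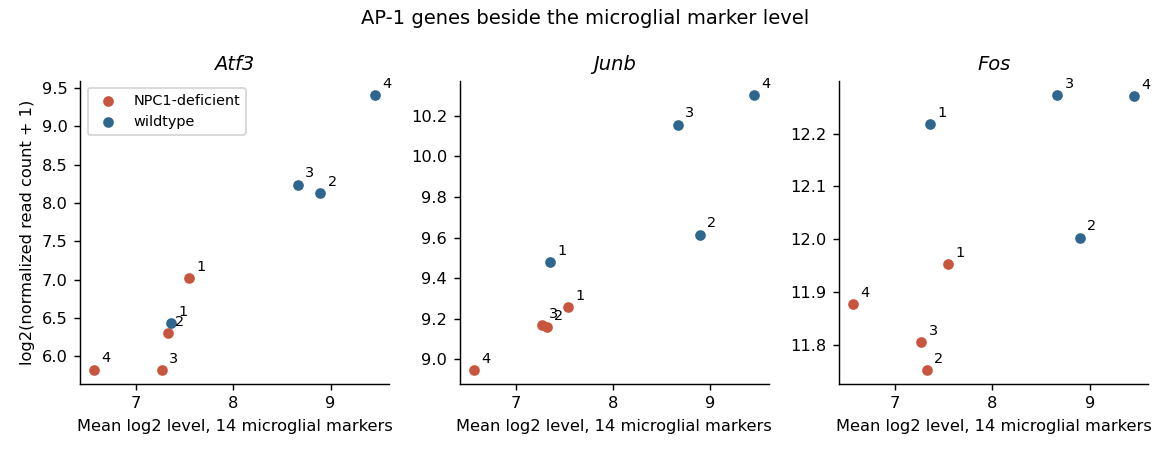
Level of Atf3, Junb and Fos (vertical axes, log2 of normalized read count + 1) in each library against the mean log2 level of 14 microglial markers (horizontal axes). Red points are NPC1-deficient and blue points wildtype libraries, with replicate numbers. Wildtype 1 lies among the NPC1-deficient libraries for the marker level and for Atf3, but above them for Fos.

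The profiles most like those of single members were found among 12475 genes with a mean of at least 50, by the root mean square difference of log2 profiles centred over the 8 libraries. For Atf3 the nearest were Selplg (0.23), Cd53 (0.27) and Csf1r (0.31), genes of leukocytes and microglia, and 5 of the 10 nearest were on the microglial marker list. The profile of Atf3 itself had a root mean square of 1.23 about its mean. For Fos the nearest were Csad (0.0684), Lmo7 (0.0737) and Mbd4 (0.0784), and 1 of the 10 nearest, Dusp1, was on the list of other immediate early genes. For Jun the nearest were Synpo2 (0.0559), Msh3 (0.0594) and Sdc2 (0.0616). For Junb, added after its values were seen, they were Sparc (0.13), Man2b1 (0.17) and Msn (0.18). Of the 10 nearest to Junb 1 was on the microglial marker list and 1 on the list of other immediate early genes. Of the 10 nearest to Jun 0 were on either list. No member was among the 10 nearest of another. These ranks are a description.

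The values of the library sets lay farthest apart for Junb and Atf3. Within libraries 1 and 2 the log2 fold change was -0.34 for Junb and -0.62 for Atf3, and within libraries 3 and 4 it was -1.17 for Junb and -3.0 for Atf3. The test of that difference gave -0.83 for Junb (limma adjusted p = 0.0689) and -2.38 for Atf3 (limma adjusted p = 0.196), so neither passed. None of the 9 passed this interaction test, against 0.078% of all genes, and 2 of 9 were under an unadjusted p of 0.05, against 13.4% of all genes. With robust variance moderation 1 member, Junb, passed the interaction (limma adjusted p = 0.0298), beside 42 of all genes (0.273%), against 12 without it. Fitted alone, libraries 3 and 4 passed 2.18% of all genes and libraries 1 and 2 passed 0.371%. Among them libraries 3 and 4 passed 3 members, Fos (-0.43, limma adjusted p = 0.00254), Junb (limma adjusted p = 0.000191) and Atf3 (limma adjusted p = 0.000555), and libraries 1 and 2 passed 0 members. Fits of 1 set rest on 2 libraries a group. For 7 of the 9 genes the fold change was negative in both sets, which held for 22.9% of all genes, the exceptions being Fosl1 (0.06 in libraries 3 and 4) and Jund (0.01 in libraries 1 and 2).

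Genes that work with AP-1 were read from the same fit, as log2 fold changes. Of 15 further leucine zipper partners tested, 0 passed, and 2, against 6.76% of all genes, were at an unadjusted p under 0.05. These were Nrl, the rod-determining factor, at -0.86 (limma adjusted p = 0.143), and Maf, at -0.25 (limma adjusted p = 0.578). The list median was -0.09. Jdp2, a repressor that pairs with JUN, had -0.14, and Atf2, which pairs with JUN at its own promoter, had 0.099 (limma adjusted p = 0.899). Of 27 kinases and factors upstream, among them DLK and the JNK genes, 0 passed and the median was -0.01. At an unadjusted p under 0.05, 2 of the 27 were lower, against 4.37% of all genes. The smallest p values belonged to Elk3, a partner of serum response factor, at -1.01 (limma adjusted p = 0.0962), Mef2c at -0.30, Map2k7, a kinase that activates JNK, at -0.12, and Map3k1 at -0.29.

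Of 17 injury genes and known AP-1 targets tested, 0 passed and the median was 0.03. Among them 1 was lower at an unadjusted p under 0.05, against 4.37% of all genes. Npy, a neuropeptide gene, stood at -1.98 (limma adjusted p = 0.0887) and had 173 to 891 normalized reads in NPC1-deficient and 1338.5 to 2478 in wildtype libraries. Cd44 had 0.19, Mmp9 -0.36 and Gal, a neuropeptide that injured neurons make, 0.12. Of 15 genes known to respond to tissue dissociation and heat shock, 0 passed and the median was -0.08. At an unadjusted p under 0.05 there were 3 of the 15, against 6.76% of all genes. The lowest p values were those of Nfkbia at -0.27 (limma adjusted p = 0.208), Gadd45b at -0.64, the heat shock gene Hspa1b at -0.28 and Hspb1 at 0.13. This list holds neither the AP-1 members nor the other immediate early genes given next, so it does not stand for the whole response to dissociation. Whether that response differed between the groups was not tested.

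Of 19 other immediate early genes, 2 fell in NPC1-deficient libraries, against 0.065% of all genes. Of the 19, 18 lay below 0 (median -0.55), against 48% of all genes. Nr4a1, an orphan nuclear receptor gene, fell by 0.94 in log2 units (SE 0.14, adjusted p = 0.0312 by limma). Btg2, an antiproliferative gene, fell by 0.64 (SE 0.10) at the same adjusted p. Klf2 had -1.21 (limma adjusted p = 0.0678) and Egr1 -0.52 (limma adjusted p = 0.0679). In 10 of the 19 every NPC1-deficient library lay below every wildtype library, against 2.41% of all genes. This list was drawn up with earlier results on immediate early genes of these libraries known, so its count is no independent evidence. The microglial, rod and amacrine levels given above also lay lower in most NPC1-deficient libraries, and their part in these values was not tested.

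**Figure D5:**
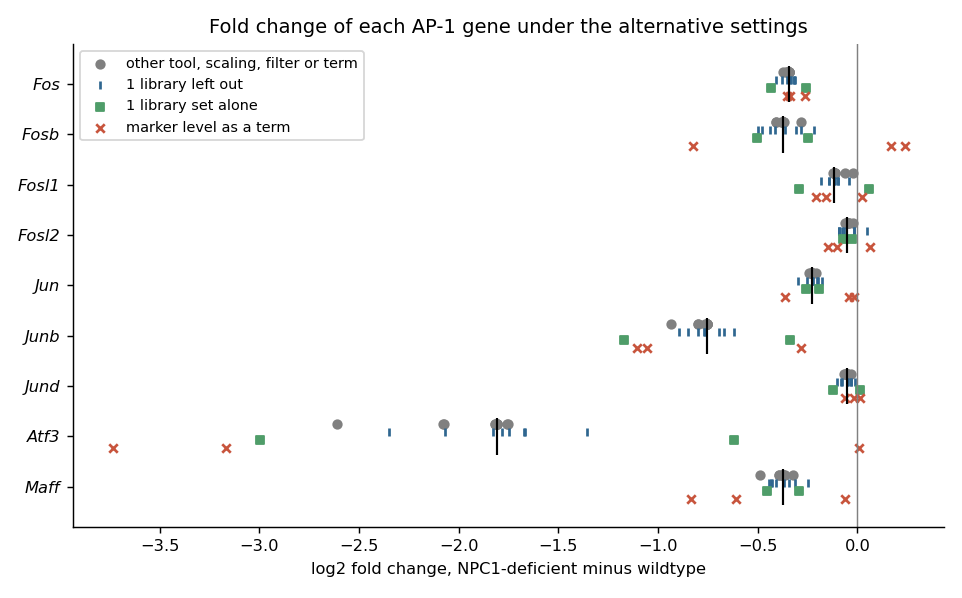
Log2 fold change of each AP-1 gene (horizontal axis, NPC1-deficient minus wildtype) under the alternative settings. Black lines mark the reported values, grey circles other tools, scalings, filters or terms, blue ticks fits with 1 library left out, green squares 1 library set alone and red crosses a marker level of microglia, rods or amacrine cells as a term. Fos stays between -0.43 and -0.26, and Atf3 runs from -3.74 to 0.00699.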

How the data were processed

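The libraries carry no strand information (TruSeq v2 kit), per the labels' protocols. The submitters' processing notes name mm10, DESeq2 1.0.19, HTSeq 0.5.4p3 and CASAVA 1.8.2 without roles. No source used here names the aligner. The authors deposited a normalized signal, a read count over 1 size factor per library. All 199536 values (100%) came out as whole reads within 1e-06, so the reads were recovered, and edgeR called 16 genes on them.

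The 15386 genes whose mean reached 10 were tested on log2(value + 1), and 9556 were left out. The test was limma 3.58.1 (R 4.3.3) with its variance trend, without covariates, and p-values were adjusted over all tested genes (Benjamini-Hochberg, 0.05). Fold changes of low genes are understated on this scale. The model was tested on simulated data. EdgeR 4.0.16 and DESeq2 1.42.0 on recovered reads, other pseudocounts, filters and scalings, added terms, and fits without single libraries were alternatives. Marker levels are mean log2 values, printed as geometric means. Lengths, positions and shared bases come from GENCODE M21 (98.1% of identifiers matched), promoters from RefSeq.

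Named were the 9 members, Npc1, up to 4 genes per pathway list and 3 per cell type list by p, and the 3 profiles nearest to Fos, Jun and Atf3. The profiles nearest to Junb, Dusp1, the DLK and JNK genes, the sex-linked genes and the genes sharing exonic bases with members were named outside this rule, those nearest to Junb and Dusp1 after their values were seen. Members and lists were chosen with earlier results of these data known.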

Additional observations from a re-analysis of the deposited data

Results flagged for a closer look

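Npc1 in NPC1-deficient 1, at 139.75 normalized reads, stood apart from the other 3 NPC1-deficient libraries, at 66.1 to 70.05: its gap to the nearest of them took up more of the group's range than Dixon's 95% limit for 4 values allows. Chance flags about 1 in 20 groups, and 20 groups were looked at, 10 genes in 2 groups. None of the 9 AP-1 genes stood apart by this measure in either group.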

How the results depend on the processing

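The number of genes called was 16. It was 10 with a minimum mean of 50, 34 with the replicate block, 99 with the library set as a term, 57 in libraries 1 and 2 alone, 335 in libraries 3 and 4 alone, 170 without wildtype 1 and NPC1-deficient 1 together, 77 and 93 when adjusted for the microglial and the rod level, and 246 with DESeq2. Leaving out 1 library gave 2 (without NPC1-deficient 3) to 144 (without wildtype 1), and each of the 8 omissions moved the count by over 1.5 times. The number of AP-1 members called was 0. It was 2 with the library set as a term, 3 in libraries 3 and 4 alone, 2 without wildtype 1 and NPC1-deficient 1 together, 1 when adjusted for the rod level, 1 when adjusted for the amacrine level (added after the data were seen), and 2 with DESeq2. Leaving out 1 library gave 0 to 2. With the replicate block 0 members were called, as without it. Same-numbered libraries had correlations of deviations between -0.07 and -0.02, and no NPC1-deficient library correlated best with its own number, so the block pairs libraries by number only. For the difference between library sets 1 member and 42 genes were called with robust variance moderation, against 0 members and 12 genes.

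The direction turned for Jund in libraries 1 and 2 (0.0129) and with the rod level (0.0146), for Fosl1 in libraries 3 and 4 (0.0578) and with the amacrine level (0.0228), for Fosl2 without NPC1-deficient 3 (0.0481, in a range from -0.0940 over single omissions) and with the rod level (0.0650), for Fosb with the rod (0.24) and the amacrine level (0.17), and for Atf3 with the microglial level (0.00699). Fos, Jun, Junb and Maff kept theirs under all 25 alternatives. The causes were not tested. The lowest count of an AP-1 gene in a library was 51 reads, and counting error was not compared with the spread between libraries.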
